A study of Homo sapiens with 3 samples.

Results

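Islet-like aggregates built from cells sorted as negative for the surface protein CD49a were compared with aggregates built from unsorted cells of the same kind. The members were all barcodes of these 2 libraries with at least 1000 detected genes and at most 20% of UMIs (counted RNA molecules) from mitochondrially encoded genes, less the called doublets: 1976 CD49a-negative and 2248 unsorted cells, 4224 of the 6618 kept cells of the whole series. Both groups were islets differentiated from the human embryonic stem cell line HUES8, which is well established. The negative cells had passed a magnetic sort with an antibody to CD49a, and both groups then spent 7 days as new aggregates before they were dispersed with TrypLE and read by 10x droplet RNA sequencing. The negative group was named by what the magnet did not hold, so it could still contain cells with little CD49a. There was 1 library a side. No test between the groups was therefore possible, and a sorted library differs from an unsorted one in handling as well as in the cells it holds, which cannot be told apart here.

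CD49a is integrin alpha 1, the product of ITGA1, which pairs with integrin beta 1 to bind collagen and laminin. Stem-cell-derived islets hold insulin-making beta-like cells, glucagon-making alpha-like cells, somatostatin-making delta-like cells and a serotonin-making population that resembles the enterochromaffin cells of the gut. Endocrine cells of these kinds also make peptide precursors that are cut inside secretory granules before release. Among them, NPW is the precursor of neuropeptide W, which acts through G protein coupled receptors and is known for roles in feeding and endocrine regulation.

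The negative library held 2566 barcodes and 88397368 UMIs, and the unsorted library 2811 barcodes and 114479071 UMIs. Median depth of the kept cells was 36997 UMIs in the negative and 42258 UMIs in the unsorted library. The filter had removed 23.0% of negative barcodes (95% exact binomial interval 21.4 to 24.7%) and 19.7% of unsorted barcodes (18.3 to 21.3%). The libraries shared 4 barcode sequences, 1 of them among kept cells. Only 8 cells were called doublets, all of them unsorted, so pairs of cells remained in the data. The islet label was checked against markers. INS, GCG, SST and TTR were abundant in both libraries, and no marker of acinar, mesenchymal or pluripotent cells reached 10 CPM (a gene's UMIs relative to the UMI total of its library) in either one. In the negative and unsorted libraries the acinar list summed to 1.41 and 1.57 CPM, the mesenchymal list to 7.09 and 3.71 CPM, and the pluripotent list to 1.34 and 1.02 CPM. Other lists had members that did reach 10 CPM. They were 3 duct markers, 2 hepatic and intestinal markers, 1 endothelial marker and 1 neural and glial marker. The duct list summed to 98.3 and 75.8 CPM and the hepatic and intestinal list to 112 and 114 CPM.

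Over all kept cells, genes typical of beta cells were lower in the negative library. INS, which encodes insulin, stood at 30112 CPM in negative and 51439 CPM in unsorted cells. IAPP, the amylin precursor that beta cells release with insulin, stood at 746 and 1275 CPM in the same order. Both hormone transcripts were thus 0.585 times as high in the negative library. ITGA1 itself (GRCh38 chr5:52787896-52959210 spans the gene) stood at 33.2 CPM (95% exact Poisson interval 32.0 to 34.5) against 66.2 CPM (64.7 to 67.7). That is 0.502 times the unsorted level (0.480 to 0.524), with 2808 and 7249 UMIs behind the values. All intervals cover counting error only, since a second library of either group was not at hand to show how much such libraries vary.

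Differences between the libraries were given as log2 ratios after 10 CPM had been added to each level, so that genes of low level appear less changed than they were, and a ratio of 1.5-fold was used as a rule of size. Of 4145 genes with at least 50 CPM and 50 UMIs in the higher library, 13 were lower by at least 1.5-fold in the negative library (0.314%) and 8 were higher by as much (0.193%). With median-of-ratios scaling the split was 16 lower and 5 higher. The lower genes beside INS, IAPP and ITGA1 fell into surface and adhesion genes and metabolic or signalling genes. PCDH7, a protocadherin, had the lowest ratio, with 241 CPM in negative and 457 CPM in unsorted cells (log2 -0.89). CDH18, a cadherin, stood at 246 and 401 CPM, and ROBO2, a receptor for SLIT guidance proteins, at 291 and 471 CPM. CCSER1 stood at 1956 and 3426 CPM (log2 -0.81), the most abundant lower gene after INS. The calcium channel subunit gene CACNA2D3 was at 46.7 and 87.0 CPM. ACVR1C, an activin receptor-like kinase, was at 337 and 528 CPM, and HADH, a mitochondrial fatty acid oxidation enzyme linked to insulin control, at 62.5 and 98.8 CPM. BACE2, a protease of beta cells, and RBP4, a retinol carrier, had log2 ratios of -0.69 and -0.62. LHFPL6 and the calcium channel gene CACNA1E came next in the ranking with -0.57 each, just inside the 1.5-fold limit.

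The 8 higher genes were of several kinds. NPW (ENSG00000183971; GRCh38 chr16:2009926-2020755, plus strand, protein-coding) led them by a wide margin. It stood at 318 CPM (314 to 322) in the negative library and 80.3 CPM (78.6 to 82.0) in the unsorted library. The ratio was 3.96 (3.87 to 4.06), and NPW was the only gene past 2-fold among all those compared (0.0241%), with none as far in the other direction. VIM, the intermediate filament vimentin, followed with 558 and 305 CPM (log2 0.85). CARTPT, the precursor of the CART peptides, was at 66.5 and 33.6 CPM, and GC, the vitamin D binding protein that alpha cells make, at 72.8 and 41.9 CPM. FEV, a transcription factor of serotonin-making cells and of islet endocrine progenitors, was at 374 and 246 CPM. IER2, an immediate early gene, S100A6, a calcium-binding protein, and IGFBP2, a carrier of insulin-like growth factors, had log2 ratios between 0.60 and 0.63. The next genes in the ranking, all just inside the limit, included SST, the somatostatin gene, at 8103 and 5472 CPM. BRI3, SERF2, IQGAP2, DUSP1 and CSTB were also among them, with log2 ratios from 0.52 to 0.58.

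**Figure D1:**
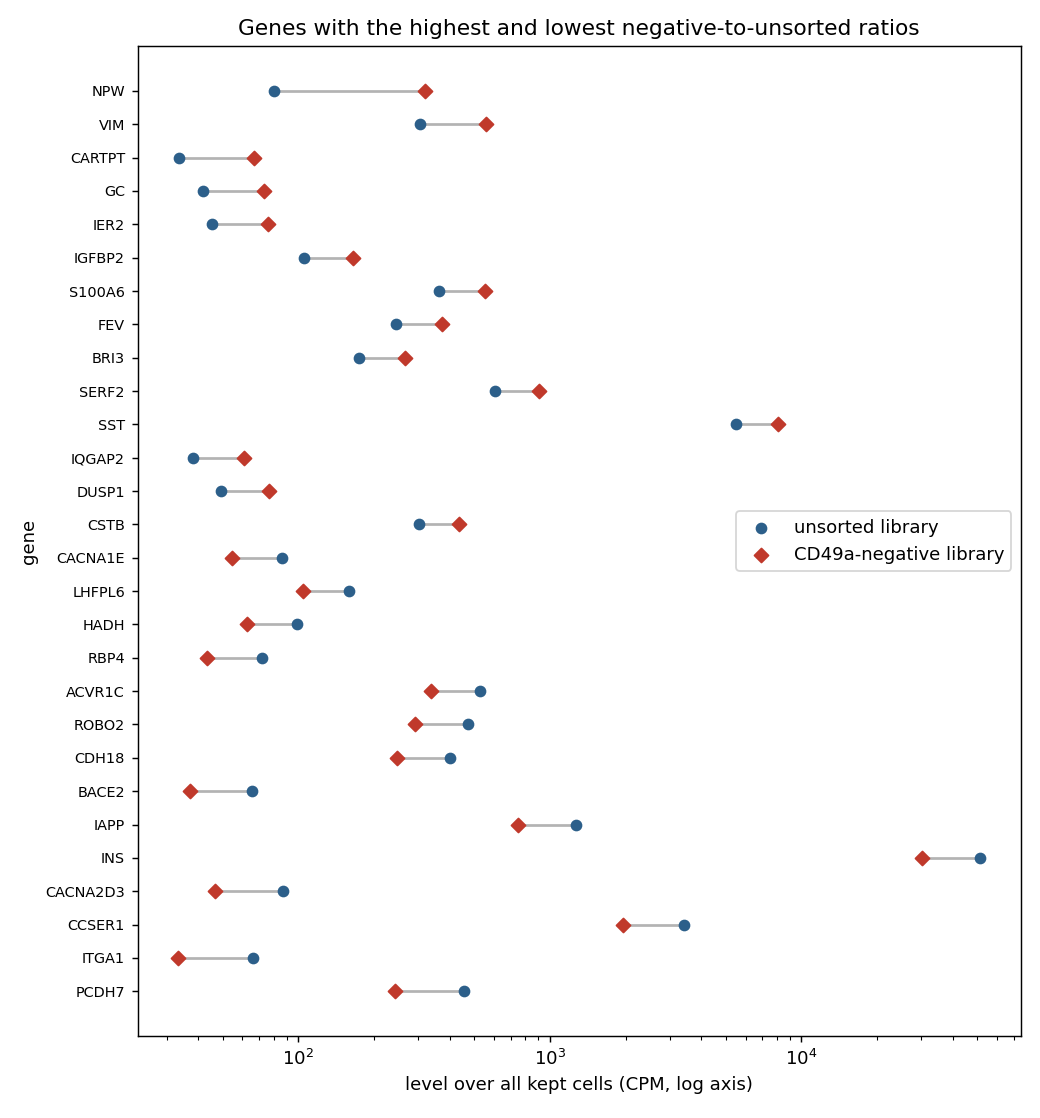
Level of 14 of the 15 genes with the highest and 14 of the 15 with the lowest ratio over all kept cells, in CPM on a log axis, with 1 point per library and gene. NPW has the widest gap (318 against 80.3 CPM), and the lower genes run from PCDH7 to CACNA1E with INS far to the right at 30112 and 51439 CPM.

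Single cells behind these sums differed in how evenly they carried them. NPW had at least 1 UMI in 78.9% of negative and 60.1% of unsorted cells, with median counts of 6 and 1 UMIs per cell. The 10 richest cells held 4.98% of the negative and 9.81% of the unsorted NPW UMIs, so the UMIs were spread over many cells. CARTPT was more concentrated. It was seen in 15.1% and 10.2% of cells, and the 10 richest cells held 29.9% and 42.4% of its UMIs. SST was seen in 88.2% and 85.3% of cells, most of them at a few UMIs, while the 10 richest cells held 15.1% and 20.8% of it. VIM was seen in 74.4% and 64.5% of cells, with medians of 10 and 2 UMIs.

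Lists of genes with known roles were described by their members of at least 10 CPM. Over all 10438 such genes the median log2 ratio was 0.0095, and 0.172% were at least 1.5-fold lower and 0.144% at least 1.5-fold higher. Of all these genes 53.2% lay above 0. Of 12 measured beta cell markers, 4 were past the limit on the lower side (INS, IAPP, ACVR1C and HADH) and none on the higher side, with a median of -0.32. SLC30A8, the zinc transporter of insulin granules, was at 365 and 464 CPM, and PDX1, a beta cell transcription factor, at 42.6 and 54.8 CPM. SIX2 was the 1 beta marker above 0, at 25.3 and 22.5 CPM. All 9 alpha markers lay above 0 (median 0.36), GC past the limit. GCG stood at 25768 and 20097 CPM, IRX2 at 167 and 128 CPM. Of 9 enterochromaffin markers, 7 lay above 0 (median 0.23) and 2 past the limit, TAC1 and FEV. TPH1, the enzyme that starts serotonin synthesis, was at 195 and 164 CPM.

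Of 23 listed neuropeptide precursors 9 were measured, all above 0 (median 0.48), and 4 past the limit: NPW, TAC1, CARTPT and CGA. TAC1, the substance P precursor, stood at 35.5 and 15.4 CPM, and CGA, the shared alpha chain of glycoprotein hormones, at 42.2 and 22.4 CPM. CRH and GAL, precursors of corticotropin-releasing hormone and galanin, were at 33.0 and 20.7 CPM and at 14.7 and 10.3 CPM. Among the integrins ITGA1 alone passed the limit of 8 measured. ITGB1, its partner chain, was at 420.4 and 381 CPM and ITGAV at 50.4 and 54.5 CPM. Of 15 immediate early genes 14 lay above 0 (median 0.29) and 2 passed the limit, IER2 and NR4A1. None of 21 nuclear-encoded respiratory chain genes and none of 23 ribosomal protein genes passed it, although 20 of each lay above 0, with medians of 0.19 and 0.15. With each cell weighted equally these 2 medians were 0.066 and 0.026. The 15 unfolded protein response genes had a median of -0.10, with none past the limit. A list of 6 genes of mixed function (BACE2, HS6ST2, CACNA2D3, CCSER1, PLAGL1 and SLC9A9) had been put together from earlier results of these data. Its 5 members past the lower limit are therefore no independent evidence.

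The makeup of the cells was then compared. Cells of all 3 libraries formed 16 clusters, which were named from marker genes where a rule allowed it. Beta-like cells (clusters 0, 1 and 6) made up 14.9% of negative cells (exact binomial interval 13.3 to 16.5%; 294 cells) and 27.4% of unsorted cells (25.6 to 29.3%; 617 cells). The difference was -12.6 points (95% counting interval -15.0 to -10.1). Alpha-like cells (clusters 2 and 5) made up 23.7% (21.8 to 25.6%; 468 cells) and 19.4% (17.8 to 21.1%; 437 cells), a difference of 4.24 points (1.76 to 6.73). Enterochromaffin-like cells (clusters 4, 10 and 15) made up 19.4% (17.7 to 21.2%; 383 cells) and 18.4% (16.8 to 20.1%; 414 cells). Their difference of 0.97 points had an interval of -1.40 to 3.33. The negative library thus held fewer beta-like and more alpha-like cells than the unsorted one, beyond counting error, and its share of enterochromaffin-like cells was within counting error of the unsorted one. The alpha-like difference was 2.54 points at a finer clustering, 7.29 points at a coarser one and 10.1 points with each cell named by its own marker scores, and the enterochromaffin-like difference was 5.93 points with the unnamed cluster 3 counted in.

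**Figure D2:**
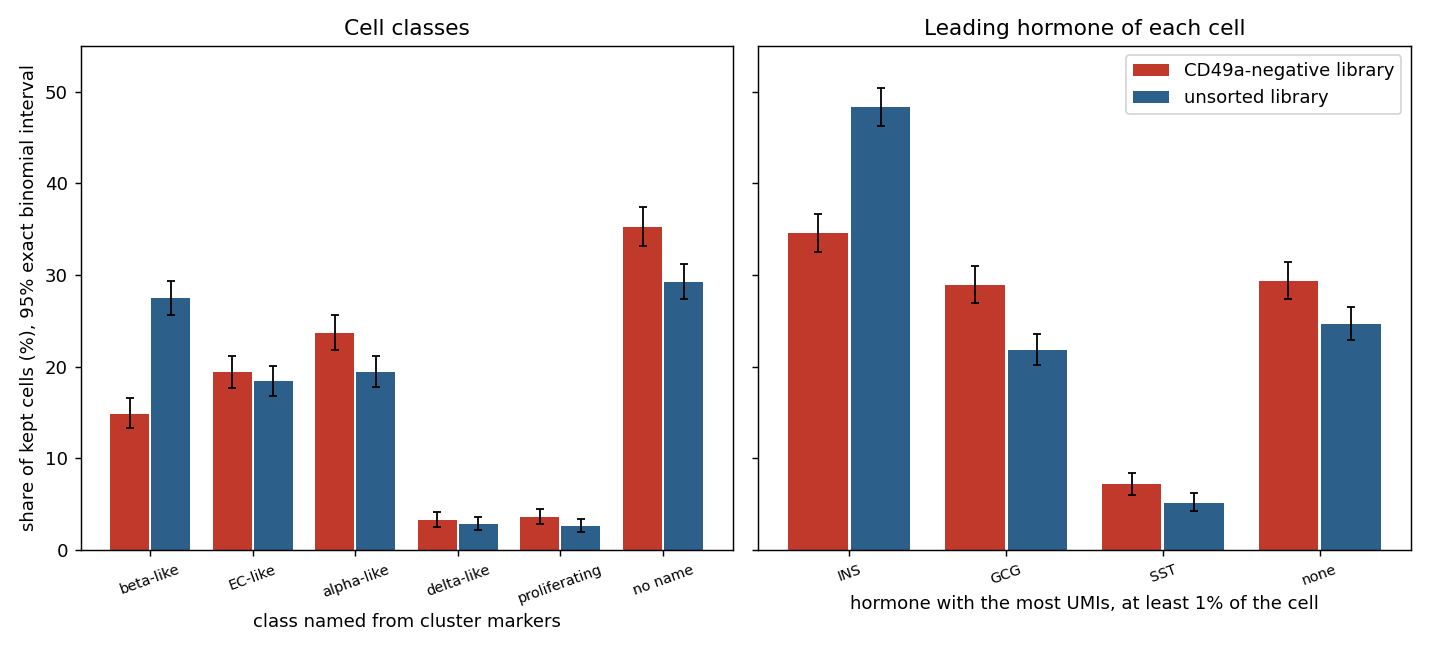
Share of kept cells in percent, with 95% exact binomial intervals as lines, by class named from cluster markers (left) and by the hormone with the most UMIs in each cell (right). Beta-like cells stand at 14.9% against 27.4% and INS-led cells at 34.6% against 48.3%, while the bars of enterochromaffin-like cells overlap in their intervals.

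Inside the enterochromaffin-like class the clusters did not keep the same proportions. Cluster 10, led by CARTPT, CGA, TAC1 and STC1, held 129 negative and 88 unsorted cells, 6.53% (5.48 to 7.71%) and 3.91% (3.15 to 4.8%) of each library. Cluster 4, which lacked these peptide genes among its leading genes, held 225 and 291 cells, 11.4% (10.0 to 12.9%) and 12.9% (11.6 to 14.4%). Cluster 15, led by TAC1 and CARTPT, held 29 and 35 cells. Since CARTPT and other leading genes also differed between the libraries, the clustering was repeated without 35 genes that were at least 1.5-fold apart. The matching clusters then held 6.48% and 4.0% (cluster 10) and 12.4% and 14.4% (cluster 4) of the libraries.

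Beta-like cells were fewer in each of their clusters. Cluster 0, led by CCSER1, PTH2R and CACNA2D3, made up 7.08% of negative and 12.1% of unsorted cells. Cluster 1, led by RBP4, CXCL12 and INS, made up 4.91% and 10.9%. Cluster 6 was led by IAPP, CGA, GHRH, NEFL and NEFM, with RPL31 and RPS2 further down, although it was named beta-like. The cluster had a median near 4829 and 4675 UMIs and 0.56% mitochondrial UMIs, and made up 2.88% and 4.45%. Delta-like cells, led by GHRL and SST, were 3.24% and 2.85% of the libraries (64 cells each), and proliferating cells, led by TOP2A and CENPF, 3.54% and 2.62%. The 6 clusters without a name held 35.3% of negative and 29.2% of unsorted cells. Among them cluster 3, led by FEV, CRYBA2 and SERF2, made up 14.2% of the negative (12.7 to 15.8%) and 9.21% of the unsorted library (8.04 to 10.5%). Its depth was high, with medians of 69556 and 76125 UMIs, and its median doublet score was 0.081 against 0.037 over all kept cells. What part pairs of cells had in it was not tested. Without the 35 genes, which included NPW, its match held 14.3% and 9.12%. Cluster 11, led by CRH, CDH13, IGFBP2, SST and HHEX, was 6.22% (5.2 to 7.38%) and 3.65% (2.91 to 4.51%), and its match 6.68% and 4.14%.

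A count that needs no clusters gave the same order. The hormone with the most UMIs in a cell, if it held at least 1% of them, was INS in 34.6% of the negative (32.5 to 36.7%) and 48.3% of the unsorted cells (46.2 to 50.4%), a difference of -13.7 points (-16.7 to -10.8). It was GCG in 28.9% (27.0 to 31.0%) and 21.8% (20.1 to 23.6%), and SST in 7.14% (6.04 to 8.36%) and 5.16% (4.28 to 6.16%). No hormone reached 1% in 29.4% and 24.6% of cells. INS and GCG both reached 1% in 17.9% of the negative cells (16.2 to 19.6%) and 14.7% of the unsorted ones (13.3 to 16.3%). Pairs of cells in 1 droplet and free RNA can also give such a count, and their part was not tested.

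Levels over all cells hold both makeup and levels within cell types. To set the makeup aside, each cluster of the unsorted library was weighted to its share of the negative library. All 21 genes past 1.5-fold kept their direction and all 21 moved nearer to 0. The mean size of their log2 ratios went from 0.76 to 0.47, and 1 gene, NPW, stayed past 1.5-fold (0.0241% of the 4145 genes). Its log2 ratio was 1.86 as measured and 1.72 at equal mix, against reweighted 89.8 CPM in the unsorted library. INS went from -0.77 to -0.47, with 41598 CPM in the reweighted library, and IAPP from -0.76 to -0.51. CCSER1, a transcript of cluster 0, went from -0.81 to -0.35. ITGA1 went from -0.82 to -0.53 and had the lowest ratio at equal mix, and CACNA2D3 and RBP4 (-0.47 each) were also among the lowest 6. On the higher side VIM (0.51), IER2 (0.50), BRI3 (0.49), CARTPT (0.45) and DUSP1 (0.45) followed NPW.

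**Figure D3:**
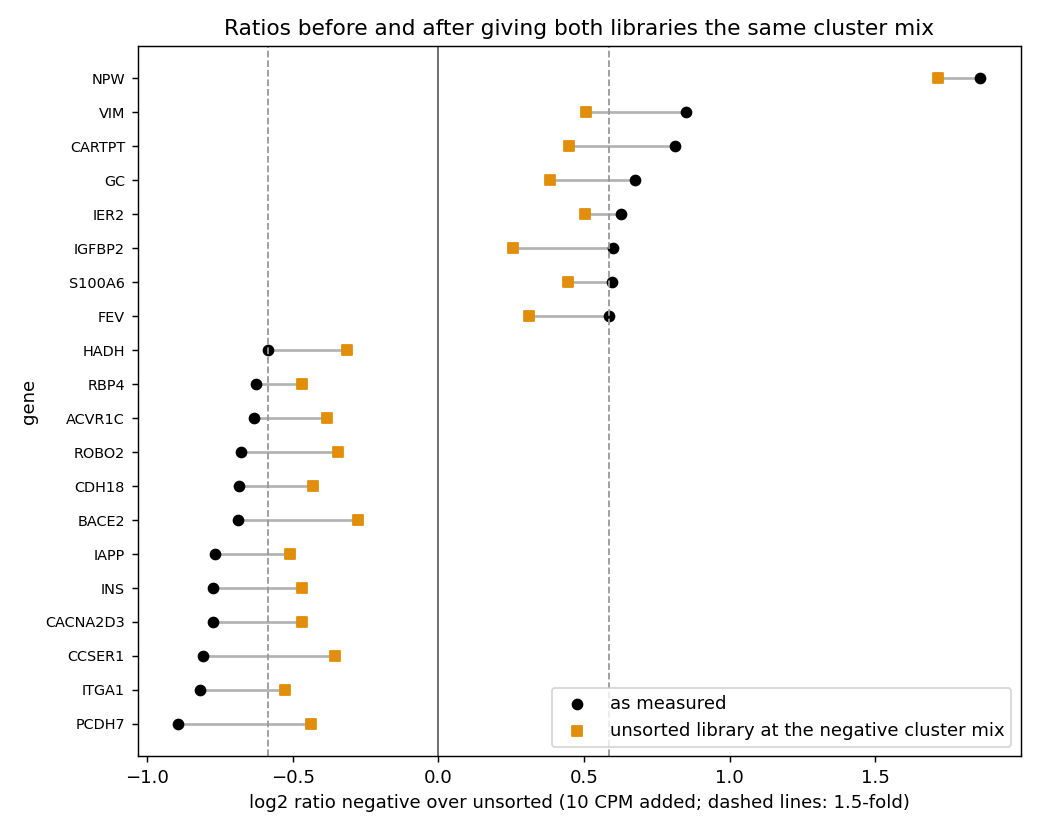
Log2 ratio of negative over unsorted for 20 of the 21 genes at least 1.5-fold apart, as measured (black) and after weighting the unsorted clusters to the negative mix (orange), with dashed lines at 1.5-fold. All 20 points move toward 0, and NPW alone stays outside the lines, at 1.72.

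NPW was higher in the negative library in each of the 16 clusters, with all 16 counting intervals of the ratio above 1 and every cluster past 1.5-fold. In the beta-like clusters 0, 1 and 6 it stood at 104, 129 and 175 CPM in the negative and at 33.7, 71.9 and 91.4 CPM in the unsorted library. In the alpha-like clusters 2 and 5 it stood at 286 and 470.5 CPM against 95.7 and 108 CPM. In the enterochromaffin-like clusters 4, 10 and 15 it stood at 188, 327 and 178 CPM against 39.8, 46.3 and 33.7 CPM. The ratio was widest in cluster 10 (7.05, 6.05 to 8.25) and narrowest in cluster 1 (1.79, 1.62 to 1.98). The highest negative level was in cluster 5 and the highest unsorted level in cluster 9 (204 CPM), a cluster without a name led by PTN, GC and ATF3. The remaining clusters had ratios from 2.09 (cluster 9) to 3.87 (cluster 3). Leaving out any 1 cluster kept the log2 ratio over all cells between 1.80 and 1.91.

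**Figure D4:**
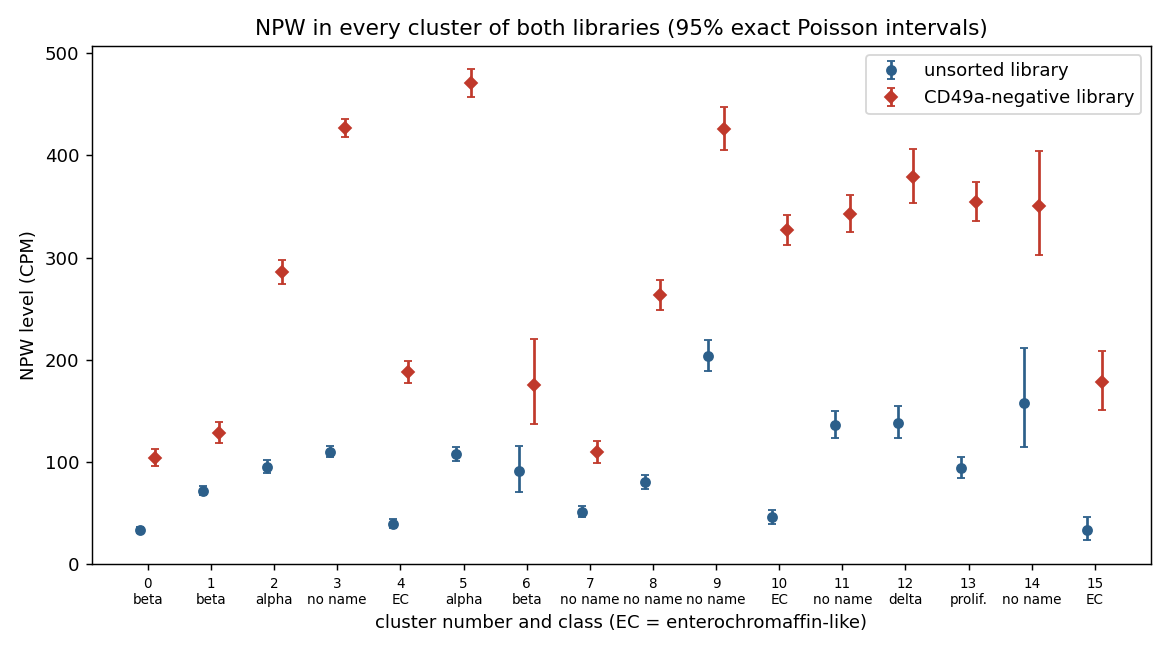
NPW level in CPM (vertical axis) in each of the 16 clusters, negative library in red and unsorted library in blue, with 95% exact Poisson intervals. The negative point lies above the unsorted point in every cluster, from 104 against 33.7 CPM in cluster 0 to 470.5 against 108 CPM in cluster 5.

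NPW was also higher in cells of equal depth. After thinning every cell to 10000 UMIs, which left out 144 negative and 180 unsorted cells, NPW was seen in 67.7% of the negative cells (65.5 to 69.9%) and 33.0% of the unsorted ones (31.0 to 35.1%). In thinned enterochromaffin-like cells the shares were 60.3% and 19.5%, in alpha-like cells 75.6% and 44.4%, and in beta-like cells 43.0% and 21.5%. Thinned TPH1, a marker of the enterochromaffin-like class, was set beside these shares. It was seen in 6.0% of negative and 3.97% of unsorted alpha-like cells and in 19.8% and 16.8% of beta-like cells. In enterochromaffin-like cells the shares were 95.3% and 93.8%. Whether TPH1 in the alpha-like and beta-like cells was free RNA or their own expression was not tested. The NPW shares of unsorted beta-like cells (21.5%) and unsorted enterochromaffin-like cells (19.5%) were near the TPH1 share of beta-like cells. TPH1 is another gene and gives no background level for NPW, which can also differ between the libraries. These shares therefore did not tell expression of NPW apart from background in either library. NPW levels within the negative library ranged from 104 to 470.5 CPM between clusters. The part of free RNA in the low levels was not tested.

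Within beta-like cells few genes were past the limit. Of 3911 eligible genes the negative library had 2 at least 1.5-fold higher (0.0511%) and 3 as far lower (0.0767%); past 2-fold there was 1 each way (0.0256%), NPW and SST. NPW was at 117 and 53.2 CPM (ratio 2.20, 2.05 to 2.37), and PTH2R, a parathyroid hormone family receptor, at 194 and 103 CPM (1.89, 1.79 to 1.99). The 3 lower genes were SST at 376 and 1443 CPM, GCG at 1578 and 2637 CPM, and NKAIN2 at 32.4 and 54.0 CPM. SST and GCG are hormones of other cell types. The 10 richest beta-like cells held 83.0% of negative and 82.1% of unsorted SST UMIs, and 77.0% and 50.9% of the GCG UMIs. Low counts were widespread. GCG had a UMI in 95.6% and 97.4% of beta-like cells, with medians of 5 and 7. The median cell had 2 SST UMIs in both libraries. In beta-like cells thinned to equal depth, SST was seen in 48.1% of negative and 40.4% of unsorted cells, an order opposite to that of the sums. Without cluster 6, where GCG stood at 859 and 14156 CPM, GCG was at a log2 ratio of -0.57 and NKAIN2 at -0.58, both inside the limit, and 3 genes were left past it. Pairs of cells and free RNA were not separated from expression in these values.

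Markers of beta cells lay close to 0 within these cells. The same markers had named the class, so their ratios cannot show whether the beta cell program was equal. None of 12 measured beta markers passed the limit (median 0.086 against 0.021 for all 10123 genes of at least 10 CPM, of which 0.0988% were past it upward and 0.079% downward). INS stood at 92993 and 98468 CPM, IAPP at 2879 and 2420.2 CPM, NKX6-1 at 141 and 117 CPM and G6PC2 at 27.2 and 20.1 CPM. None of 12 glucose sensing and KATP channel genes passed it. ABCC8, the sulfonylurea receptor, was at 372 and 326 CPM, and GLP1R, the incretin receptor, at 36.8 and 28.7 CPM. ITGA1 was at 94.4 and 117 CPM, a log2 ratio of -0.28. PCDH7 was at 893 and 914 CPM here, while over all cells it had the lowest ratio of all. Of the 6 highest and 6 lowest ratios, HDAC9 (0.54), IGFBP3 (0.50), RORA (0.48) and TAFA2 (0.45) lay on the higher side, and HTRA1 (-0.51), HIST1H1C (-0.51) and PRICKLE1 (-0.50) on the lower side, all inside the limit.

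Enterochromaffin-like cells had the most genes past the limit of the 3 classes. Of 4467 eligible genes, 27 lay on the higher side of the limit (0.604%) and 8 on the lower side (0.179%), and 5 of the higher ones were past 2-fold (0.112%). With median-of-ratios scaling 22 were higher and 15 lower, and in cluster 4 alone 17 genes were past the limit. NPW led with 248 and 41.2 CPM (ratio 6.01, 5.51 to 6.57). Immediate early genes, which respond within minutes to signals and to handling of cells, were also among the higher ones. JUNB was at 65.9 and 20.9 CPM, FOS at 113 and 45.4 CPM, EGR1 at 69.7 and 30.3 CPM and DUSP1, a phosphatase of MAP kinases, at 65.3 and 33.0 CPM. All 12 measured members of the immediate early list lay above 0 (median 0.70) and 7 passed the limit, against 0.362% of all 10510 genes of at least 10 CPM (0.143% were past it downward). Of those 10510 genes 51.7% lay above 0 in this class. FOS was seen in 54.8% of negative and 29.95% of unsorted enterochromaffin-like cells and JUNB in 54.6% and 34.1%, but the 10 richest cells held 50.2% of the unsorted FOS UMIs. In beta-like cells the same list had a median of 0.018 and no member past the limit, with FOS at 104 and 132 CPM. In alpha-like cells the median was 0.16 and 1 of 15 passed it, NR4A1 at 30.3 and 14.6 CPM. Whether these classes differ was not tested. In cluster 4 alone FOS was at 106 and 28 CPM and EGR1 at 71.1 and 23.5 CPM, at least as far apart as in the class as a whole. The 27 higher genes of the class, these among them, were short, with a median span of 3.94 kb against 66.0 kb for all its eligible genes.

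Summed over the enterochromaffin-like class, peptide precursors were also higher in the negative library. Of 7 measured neuropeptide precursors 6 passed the limit upward (median 0.83). Of all 10510 genes of at least 10 CPM, 0.362% did, and 0.143% passed it downward. Cluster 10, led by CARTPT, CGA and TAC1, held 129 of the 383 negative and 88 of the 414 unsorted cells of the class. These sums therefore hold cluster makeup as well as levels within clusters. CGA stood at 190.3 and 85.2 CPM, TAC1 at 166 and 88.9 CPM, CARTPT at 314 and 204 CPM, NTS, the neurotensin precursor, at 37.0 and 18.6 CPM, and PENK, the enkephalin precursor, at 15.4 and 0.904 CPM. ADCYAP1, the PACAP precursor, was at 37.9 and 42.4 CPM. VGF, a granin-like precursor of secreted peptides, was at 179 and 82.6 CPM. Much of the CGA and VGF sums came from few cells. CGA was seen in 14.6% and 9.90% of the cells, and its 10 richest cells held 78.2% and 82.9% of the UMIs; for VGF these held 59.3% and 63.9%. CARTPT and TAC1 were high in 2 of the class's clusters, in opposite orders. In cluster 10, which held a larger share of the negative library, CARTPT stood at 544 and 440.2 CPM, TAC1 at 296 and 97.0 CPM and CGA at 380.0 and 282 CPM. In cluster 15 CARTPT and TAC1 were at their highest and the order was the other way, with CARTPT at 892 and 1046 CPM, TAC1 at 456 and 832 CPM and CGA at 27.3 and 58.7 CPM. In cluster 4 CGA was at 46.7 and 5.43 CPM and VGF at 49.5 and 11.8 CPM.

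Several of these genes carry a cyclic AMP response element, the sequence to which CREB family factors bind, in the DNA before their start. The motif TGACGTCA, which reads the same on both strands, was chosen after the values had been seen. It was searched in the 250 bases before the RefSeq start (build GRCh38.p14). It was found in 4 of the 23 higher genes that had a promoter in the table (17.4%), in 4.24% of the 3605 eligible genes with one and in 2.03% of all 27305 promoters. The 4 genes were CGA, VGF, DUSP1 and CARTPT. Their windows are shown because they hold the match, and that of NPW because it led the ranking without one. Capitals mark the motif, and each sequence runs 5′ to 3′ on the strand of the gene.
CGA: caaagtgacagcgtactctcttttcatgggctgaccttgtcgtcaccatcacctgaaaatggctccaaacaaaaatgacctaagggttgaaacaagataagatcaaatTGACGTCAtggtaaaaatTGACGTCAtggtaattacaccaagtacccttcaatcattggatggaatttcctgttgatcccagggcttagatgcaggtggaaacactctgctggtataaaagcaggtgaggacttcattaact
VGF: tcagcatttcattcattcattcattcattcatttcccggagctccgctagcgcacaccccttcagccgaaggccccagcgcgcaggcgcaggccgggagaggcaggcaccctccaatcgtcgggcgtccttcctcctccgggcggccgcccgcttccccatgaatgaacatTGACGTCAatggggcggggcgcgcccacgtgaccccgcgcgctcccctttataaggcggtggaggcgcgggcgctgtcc
DUSP1: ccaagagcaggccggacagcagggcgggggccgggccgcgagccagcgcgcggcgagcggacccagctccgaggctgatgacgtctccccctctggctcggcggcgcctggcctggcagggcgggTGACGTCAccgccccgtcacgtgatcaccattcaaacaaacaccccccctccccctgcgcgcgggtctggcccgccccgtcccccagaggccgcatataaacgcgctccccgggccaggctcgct
CARTPT: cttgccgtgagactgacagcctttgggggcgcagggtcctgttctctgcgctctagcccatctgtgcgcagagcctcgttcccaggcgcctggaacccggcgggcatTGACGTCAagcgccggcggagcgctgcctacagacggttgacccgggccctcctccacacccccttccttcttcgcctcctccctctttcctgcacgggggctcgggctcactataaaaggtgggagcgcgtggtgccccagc
NPW: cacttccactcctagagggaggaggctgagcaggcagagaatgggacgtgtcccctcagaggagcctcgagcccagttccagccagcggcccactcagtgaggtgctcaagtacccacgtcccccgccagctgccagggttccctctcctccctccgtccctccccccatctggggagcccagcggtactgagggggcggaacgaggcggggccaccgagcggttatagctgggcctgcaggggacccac
The windows are chr6:87095107-87095356 (minus strand) for CGA, chr7:101165570-101165819 (minus) for VGF, chr5:172771196-172771445 (minus) for DUSP1, chr5:71719025-71719274 (plus) for CARTPT and chr16:2019535-2019784 (plus) for NPW. CGA held 2 copies, which began 142 and 124 bases before the start. The single copies began 79 bases before the start in VGF, 125 in DUSP1 and 143 in CARTPT. A match in a window does not show that a factor was bound there, and for NPW the search says only that these letters are not in its window. That window lies inside the GENCODE span of NPW given above, which begins at chr16:2009926. The DNA before the beginning of that span was not searched.

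Other genes past the limit in enterochromaffin-like cells were of mixed function. IFI6, an interferon-induced gene, was at 410.3 and 237 CPM, and B2M, the light chain of HLA class I, at 236 and 137 CPM. S100A6 was at 593 and 337 CPM, VIM at 200.3 and 117 CPM, DLK1, an imprinted Notch family protein, at 152 and 87.2 CPM, and MT1X, a metallothionein, at 54.3 and 30.1 CPM. IAPP was at 281 and 172 CPM over the class, but lower in the negative library in clusters 4 and 15. The highest of the others by level was BEX3, at 1061 and 670.4 CPM. TPH1, which defines the class, was at 708 and 696 CPM, and DDC, which makes serotonin from its precursor, at 512 and 462 CPM. No member of the serotonin list passed the limit. TPH1, DDC, GCH1 and SLC18A1 of that list were also among the markers that had named the class. Their ratios therefore cannot show whether the serotonin program was equal. All 21 respiratory chain genes lay above 0 (median 0.35) without any past the limit, and 22 of 23 ribosomal protein genes did (median 0.29).

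The 8 lower genes of these cells were PCDH7, SST, ANKS1B, HMGCS1, PPM1E, SDK1, DPP10 and TMEM108. PCDH7 stood at 39.8 and 80.6 CPM, ANKS1B, a synaptic scaffold, at 977 and 1544 CPM, and DPP10, a potassium channel partner, at 634 and 968 CPM. HMGCS1, an early enzyme of cholesterol synthesis, was at 244 and 383 CPM, and all 14 genes of that list lay below 0 (median -0.24). SST was at 1046 and 1821 CPM, but the 10 richest cells held 85.3% of its negative and 96.3% of its unsorted UMIs. In enterochromaffin-like cells thinned to equal depth, SST was seen in 53.6% of negative and 40.25% of unsorted cells. The order of these shares was opposite to that of the sums, so the lower SST sum does not describe most cells of the class. All 19 ion channel and glutamate receptor genes lay below 0 (median -0.29), with CACNA2D3 past the limit, as did 17 of 18 axon guidance genes (median -0.21, with none past the lower limit). ITGA1 was at 18.8 and 31.1 CPM (log2 -0.51).

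**Figure D5:**
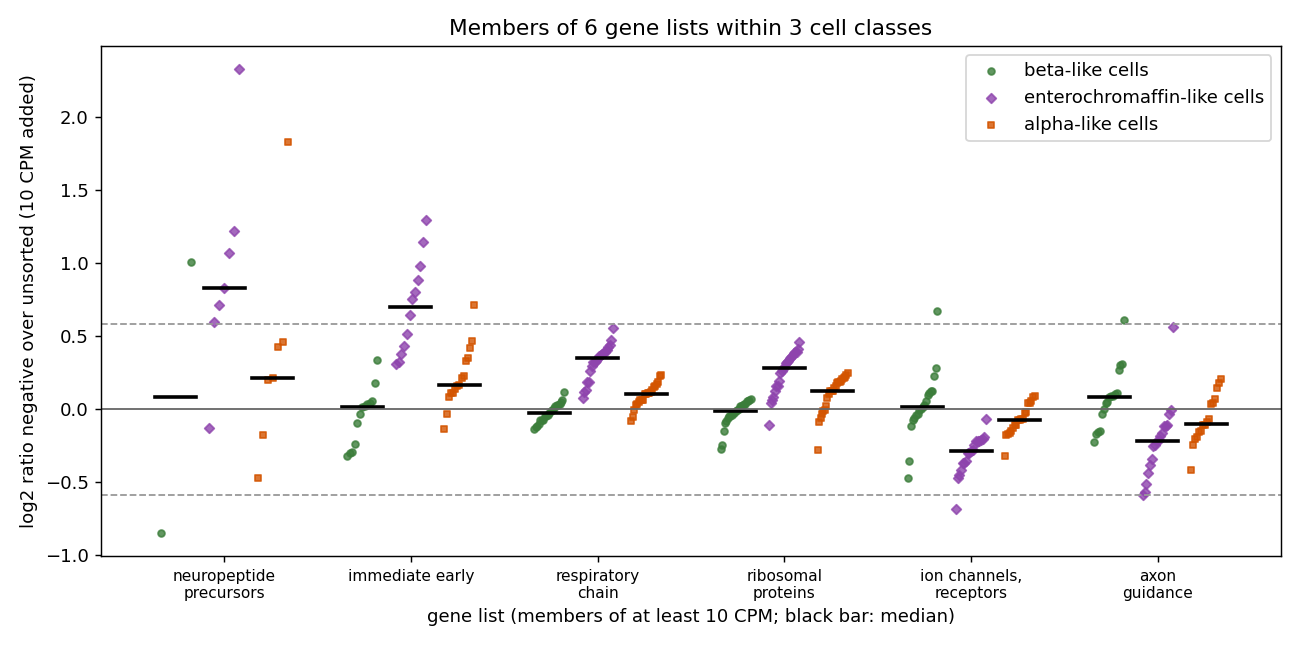
Log2 ratio of negative over unsorted for each member of at least 10 CPM in 6 gene lists, by class, with black bars at the medians and dashed lines at 1.5-fold. In enterochromaffin-like cells the immediate early genes sit above 0 (median 0.70) and the ion channel genes below it (median -0.29), while both lists lie around 0 in beta-like cells (0.018 and 0.017).

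Alpha-like cells as a class differed in fewer genes than enterochromaffin-like cells. Of 3981 eligible genes 4 lay past the limit upward (0.1%) and 3 downward (0.0754%), and NPW alone was past 2-fold (0.0251%). With median-of-ratios scaling 3 were higher and 5 lower. In cluster 5 alone 15 genes were past the limit, near the 17 of enterochromaffin-like cluster 4 alone. NPW was at 389 and 102 CPM (ratio 3.82, 3.63 to 4.02), and was seen in 84.0% of negative and 72.1% of unsorted alpha-like cells. S100A11, a calcium-binding protein, was at 196 and 120 CPM, VGF at 72.1 and 43.3 CPM, and SQSTM1, the autophagy receptor p62, at 342 and 224 CPM. S100A10 and S100A6 followed just inside the limit (0.58 and 0.57). The lower genes included OPCML, a cell adhesion protein, at 81.7 and 149 CPM, and IAPP, at 127 and 204 CPM. GRIN3A, EYS and NEFM came next, at -0.58, -0.57 and -0.55. Markers of alpha cells stayed near 0: GCG was at 67222 and 73815 CPM and IRX2 at 282 and 267 CPM, and none of 9 alpha markers passed the limit (median 0.076). These markers had also named the class, so their ratios cannot show whether the alpha program was equal. INS, the hormone gene of beta cells, stood at 10886 and 14126 CPM in the alpha-like cells. The part of RNA from other cells in the INS and IAPP values of this class was not tested. Of 3 measured metallothioneins all were past the lower limit, MT1X at 19.1 and 38.3 CPM, against 0.0682% of the 10271 genes of at least 10 CPM (0.0876% were past the higher one), whereas MT1X was higher in enterochromaffin-like cells.

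Long genes tended to be lower and short genes higher in the negative library. Over all kept cells the median span of the 8 higher genes was 6.95 kb and that of the 13 lower genes 171 kb, against 63.2 kb for all eligible genes. In enterochromaffin-like cells the 8 lower genes had a median span of 393 kb. Across genes, which are not independent of each other, Spearman's rho between span and log2 ratio was -0.67 over all cells, -0.80 in enterochromaffin-like, -0.46 in alpha-like and 0.19 in beta-like cells. MALAT1, an RNA that stays in the nucleus, was at 14534 and 14858 CPM over all cells and at 16247 and 18561 CPM in enterochromaffin-like cells. Mitochondrial transcripts took 7.85% and 8.07% of the UMIs over all cells. Long genes are rich in unspliced nuclear RNA, and the part of nuclear and cytoplasmic RNA content in the differences of the immediate early, neuropeptide, respiratory chain, ribosomal, ion channel and axon guidance lists was not tested.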

How the data were processed

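Single-cell RNA was measured in 3 libraries, 1 per group, grouped by the sorting labels. The authors deposited UMI counts, whole numbers for 36601 genes in each barcode, made with Cell Ranger 7.1.0 on GRCh38, per the submitters' processing notes. Kept barcodes had 1000 genes or more and mitochondrial UMIs of 20% or less. Scrublet called 8 doublets, which were removed; with so few calls it has not worked, and doublets remain. All 3 libraries were clustered together (10000 counts per cell, log scale, 2000 variable genes, 30 principal components, 20 neighbours, Leiden resolution 1, seed 0) with Python 3.11.15, scanpy 1.11.5, numpy 2.4.6, scipy 1.17.1, pandas 2.3.3, igraph 0.11.9, leidenalg 0.10.2 and matplotlib 3.10.9.

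Clusters were named from 14 marker lists by a rule set after the clusters were seen: 3 or more markers raised 1.5-fold over the remaining cells, a mean log2 lead of 0.5 over any rival endocrine class, and no rival with more markers in the top 10 genes. Shallow clusters (library median over 3 times theirs) also needed a marker in that top 10, and proliferating cells 5 of 8 markers. All others stayed unnamed.

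Cells are not replicates, so UMIs were summed over each class of a library and given as CPM with 95% exact Poisson intervals; shares have exact binomial (Clopper-Pearson) intervals, and differences of shares a normal one. These cover counting error only, and with 1 library a side no test was made. Genes were named by rank: the 15 highest and 15 lowest log2 ratios over all cells, and 6 each way within a class and at equal cluster mix; genes past the limit and members of 30 gene lists were named too. A few genes that the rule names are not reported here. Members and lists were chosen with earlier results of these data known. On simulated counts with known changes the ratios were checked. Gene spans came from GENCODE release 29 and promoters from RefSeq GRCh38.p14. Other pseudocounts, scalings, filters, depths and clusterings were tried. Barcodes outside the filter are described only after the comparisons.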

Additional observations from a re-analysis of the deposited data

Results flagged for a closer look

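IAPP moved in opposite directions in 2 classes. In enterochromaffin-like cells it was higher in the negative library (281 against 172 CPM, log2 0.68), and in alpha-like cells it was lower (127 against 204 CPM, log2 -0.65). The difference between the classes was not tested. A few cells carried most of it: the 10 richest held 74.7% of negative and 76.7% of unsorted IAPP UMIs in enterochromaffin-like cells, and 70.5% and 85.7% in alpha-like cells. Within enterochromaffin-like cells cluster 10 had 610.4 and 508 CPM, while cluster 4 had 30.6 and 44.2 CPM and cluster 15 had 9.50 and 48.1 CPM. Only cluster 10 thus had the direction of the class. This IAPP-rich cluster also held 129 of the 383 negative and 88 of the 414 unsorted cells of the class. The class values therefore hold cluster makeup as well as levels within clusters.

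NPW was also higher in barcodes that the filter had left out. None of them entered the comparisons of the report, and a part of them entered the looser filter among the alternatives (500 genes, 30% mitochondrial UMIs). In such negative barcodes it stood at 145.73 CPM (134 to 158), and in such unsorted barcodes at 33.8 CPM (28.6 to 39.8), on 558 and 148 UMIs, a ratio of 4.31 against 3.96 in the kept cells. In the same barcodes ITGA1 stood at 23.5 and 31.6 CPM, and VIM at 167 and 107 CPM.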

How the results depend on the processing

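The count of genes at least 1.5-fold apart moved with the settings. Over all cells it was 21, and it was 8 with 50 CPM added, 10 with each cell weighted equally, 35 with no filter on low genes, 32 with a cell filter of 2000 genes and 10% mitochondrial UMIs, and 13 at 10000 UMIs per cell. In beta-like cells (5) it was 20 with no filter on low genes, 10 at 10000 UMIs per cell and 3 without cluster 6. In enterochromaffin-like cells (35) it was 61 with 1 CPM and 13 with 50 CPM added, 22 with cells weighted equally, 57 with no filter, 60 with the stricter cell filter and 17 in cluster 4 alone. In alpha-like cells (7) it was 12 and 3 with 1 and 50 CPM added, 18 with no filter and 15 in cluster 5 alone. At equal mix it was 1, and 2 at resolution 0.5. With median-of-ratios scaling the split of higher and lower genes was 5 and 16 in place of 8 and 13 over all cells, 22 and 15 in place of 27 and 8 in enterochromaffin-like cells, and 3 and 5 in place of 4 and 3 in alpha-like cells; the cause was not tested.

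NPW was higher under all settings run: its log2 ratio ranged from 1.5 to 1.97 over all cells, 0.70 to 1.13 in beta-like, 1.71 to 2.56 in enterochromaffin-like and 1.53 to 2.03 in alpha-like cells. Of 774 values of named genes under other settings, none changed direction where the gene was past 1.5-fold in the settings of the report. Changes of direction in the other named genes were not counted. Of the 774 values, 304 moved beyond counting error, or by more than 0.1 log2 at equal mix. The enterochromaffin-like difference in share was 5.93 points with cluster 3 counted in, against 0.97, and the alpha-like difference 2.54 points at resolution 2, 7.29 points at resolution 0.5 and 10.1 points with each cell named by marker scores, against 4.24. The neuropeptide median was 0.65 with 1 CPM and 0.23 with 50 CPM added, and the respiratory chain median 0.066 with cells weighted equally. Of 144 list medians 4 changed sign, all of them close to 0. Settings without single clusters, at 10000 UMIs per cell, or with cluster 3 counted in were chosen after seeing the data. No paired analysis was possible because each group has 1 library, and for the same reason no replicate could be left out. Depth limits the genes of low level in the smaller classes most.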
